A study of Gallus gallus with 16 samples.

Results

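The response of chicken granulosa cells to FOXL2 knockdown was compared between 2 stages of follicle growth. The comparison used all 16 RNA-Seq libraries of the study, 4 in each of 4 groups, and every gene row with enough reads, 14775 of the 18151 rows in the files. For each row the quantity was a stage difference on the log2 scale, the change from control to knockdown in pre-ovulatory granulosa cells (poGC) minus the same change in pre-hierarchical granulosa cells (phGC). A positive stage difference means that the knockdown raised a gene more, or lowered it less, in poGC. Rows with a Benjamini-Hochberg adjusted p-value under 0.05 for this difference, from edgeR's quasi-likelihood test on all 16 libraries, are called stage-dependent.

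The cells were primary granulosa cells from White Leghorn hens of 25 to 30 weeks. The poGC came from pre-ovulatory follicles and the phGC from small yellow follicles of 6 to 8 mm, and both were grown for 16 h in medium with serum before transfection. The KD groups of each stage (poGC-KD, phGC-KD) received FOXL2-siRNA and the CT groups (poGC-CT, phGC-CT) a nonsense siRNA (NC-siRNA), all with the same lipid reagent, so that the controls were transfected too and no group was left without siRNA. A single FOXL2-siRNA was used and follicles came from 4 hens, but which hens gave which library was not stated, and the p-values measure only the spread between these libraries. Both siRNAs are shown because every comparison rests on the contrast between them. Capitals mark the 19 bases that pair in the duplex and the lower-case letters its overhangs.
FOXL2-siRNA, first strand: GCCUCAACGAGUGCUUCAUtt
FOXL2-siRNA, second strand: AUGAAGCACUCGUUGAGGCtt
NC-siRNA, first strand: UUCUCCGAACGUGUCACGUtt
NC-siRNA, second strand: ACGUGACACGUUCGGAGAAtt

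FOXL2 is a forkhead transcription factor of granulosa cells, which surround the oocyte, nourish it and make steroid and peptide hormones. In the hen, granulosa cells of small follicles divide and are held undifferentiated until a follicle is selected into the pre-ovulatory hierarchy, after which they turn to progesterone synthesis under gonadotropin control. In mammals, FOXL2 is needed to keep the identity of granulosa cells, and its known targets include genes of steroid synthesis, the inhibin and activin family and the cell cycle.

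Library totals ran from 29979116 to 56121795 counts, with poGC libraries deeper than most phGC libraries. Over all genes the first principal component of log2 CPM, the normalized read count scaled to a common library size, carried 50.4% of the variance and separated poGC from phGC, and the second carried 7.21% and separated KD from CT. A pair of libraries stood apart. Replicate 2 of phGC-KD lay far from the others on the third component, and replicate 1 of phGC-CT lay nearer to phGC-KD than its fellow controls on the fourth. The granulosa genes FOXL2, ZP3, CYP11A1 and NR5A1 were present in every library. Markers of other cells were present in part. A level of 1 FPKM, a read count set against gene length and depth, was reached in at least 1 library by 4 of 16 leukocyte markers, 2 of 8 of erythrocytes, 5 of 13 of germ cells, 3 of 14 of pigment cells, 6 of 15 of endothelium, 8 of 16 of epithelium and 9 of 15 of theca cells and fibroblasts. The highest in the first 4 lists were CD74 (27.1 to 73.3 FPKM over the libraries), HEMGN (7.05 to 24.6), TDRD1 (1.74 to 3.49) and MITF (1.69 to 7.98), whereas PTPRC of leukocytes did not pass 0.322, DDX4 of germ cells 0.0273 and TYR of pigment cells 0.105 FPKM. COL3A1 lay between 548 and 760.1 FPKM in phGC against 67.4 to 150.4 FPKM in poGC.

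The siRNA target itself was measured first. FOXL2 had 689, 758, 769 and 724 CPM in the 4 poGC-CT libraries and 508, 445, 472 and 393 CPM in poGC-KD. In phGC it had 472, 497, 682 and 589 CPM in the controls and 401, 507, 399 and 363 CPM after knockdown. All poGC-KD libraries lay below all poGC-CT libraries, whereas phGC-KD replicate 2 lay above the lowest pair of phGC controls. The log2 change was -0.69 (adjusted p = 0.000582) in poGC and -0.42 (adjusted p = 0.0237) in phGC. The stage difference of FOXL2 was -0.27 (SE 0.17, 95% interval -0.63 to 0.093, adjusted p = 0.396). The interval includes 0, so that a difference in the depth of the knockdown was not shown. Every stage difference below stands beside this difference in the target, and its part in them was not tested.

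Of the 14775 rows tested, 1367 were stage-dependent, which is 9.25%. The stage difference was positive in 661 (4.47%) and negative in 706 (4.78%), and it exceeded 2-fold in 290. Within poGC, 11.4% of rows rose and 11.1% fell, and within phGC 9.69% rose and 7.74% fell, at the same threshold in the same model. Most responses were not shown to differ, since 2333 of the 3311 rows that changed in poGC and 1986 of the 2575 that changed in phGC did not pass the test of the difference. Of the 1256 rows that changed in both stages, 1162 changed the same way.

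The stage-dependent rows fell into 5 kinds. In 725 (4.91% of all rows tested) the change passed the test in poGC and missed it in phGC, and 415 of these rose while 310 fell. In 336 (2.27%) the change passed in phGC and missed in poGC, with 226 up and 110 down. Both changes passed with opposite signs in 94 rows (0.636%), of which 40 rose in poGC and fell in phGC and 54 did the reverse. Another 159 changed in the same direction by different amounts, 126 of them more in poGC, and in 53 only the difference itself passed. A missed test is not an absent change. For 618 of the 725 poGC-only rows the 95% interval of the phGC change lay within 1.5-fold either way, and the same held in poGC for 282 of the 336 phGC-only rows. Without phGC-CT replicate 1 the stage-dependent rows numbered 1857, the phGC-only rows 629 and the opposite rows 162, whereas without phGC-KD replicate 2 they numbered 1244, 294 and 84. The opposite rows also fell to 62 without poGC-CT replicate 4 and to 58 without phGC-CT replicate 4.

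**Figure D1:**
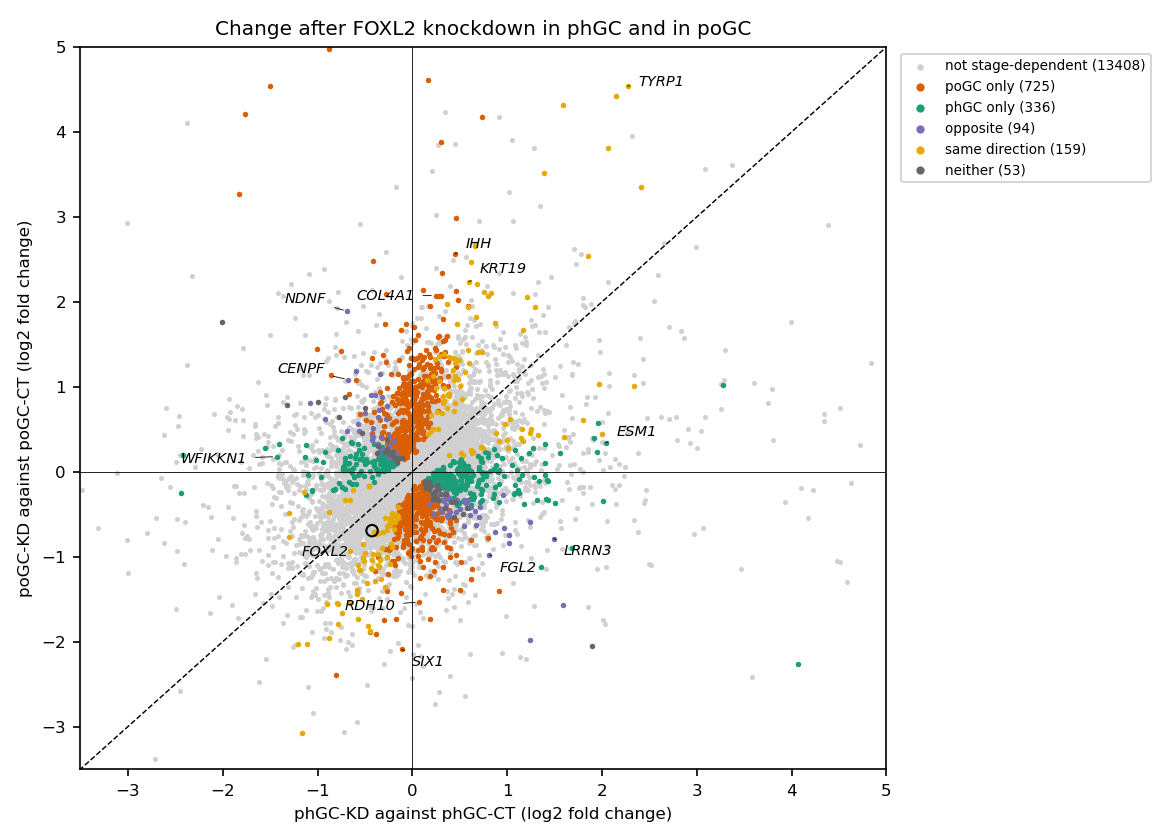
Each point is 1 tested gene row, with the log2 change in phGC on the horizontal axis and in poGC on the vertical axis. The dashed line marks equal change, colours mark the 5 kinds of stage dependence, the open circle is FOXL2, and 76 rows lie outside the plotted range. Orange points (725) stretch along the vertical axis and green points (336) along the horizontal axis, while the violet points (94) occupy the 2 quadrants of opposite sign.

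Genes of cell division and DNA replication gave the highest shares of stage-dependent members of all lists. Most of them rose in poGC-KD. In 3 lists of genes for the kinetochore and spindle checkpoint, for the spindle, chromosome condensation and cytokinesis, and for DNA replication, 97 of 152 tested rows were stage-dependent and all 97 were positive, against 4.47% of all rows. By list the counts were 29 of 48, 37 of 51 and 31 of 53, and the median stage differences 0.80, 0.90 and 0.64, against -0.014 over all rows tested. Of the 97 rows, 83 rose in poGC only, 8 rose in both stages by different amounts and 6 moved in opposite directions. Within poGC, 33, 45 and 39 rows of these lists rose and 0, 0 and 2 fell, against 11.4% and 11.1% of all rows. Within phGC, 11 of the 152 rows rose and 8 fell (7.24% and 5.26%), which is near the 9.69% and 7.74% of all rows. Neither of the outlying libraries decided the counts, which were 31, 35 and 36 without phGC-CT replicate 1 and 28, 35 and 30 without phGC-KD replicate 2.

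The values of single genes show what these counts stand for. CDK1, the kinase that drives entry into mitosis, had 41.2, 44, 42.2 and 42.7 CPM in poGC-CT and 92.8, 96.5, 99.5 and 105 CPM in poGC-KD. In phGC-CT it had 76.6, 88, 83.1 and 83.8 CPM and in phGC-KD 74.8, 86.6, 88.1 and 85.8 CPM. CDK1 in poGC was thus below the phGC range in the controls and above it after knockdown, while the phGC groups lay on top of each other. Its change was 1.21 in poGC and 0.015 in phGC, a stage difference of 1.20 (SE 0.085, adjusted p = 1.14e-06). MKI67, which encodes the proliferation marker Ki-67, rose from 37.7, 30.6, 38.3 and 34.8 CPM to 86.8, 90.8, 84 and 96.8 CPM in poGC. In phGC it was lower than in either poGC group, at 20.9, 15.7, 15.7 and 18 CPM in the controls and 19.2, 17.5, 15.8 and 17.8 CPM after knockdown. Its stage difference was 1.34 (adjusted p = 3.97e-05). The phGC controls thus stood above poGC-CT for CDK1 and below it for MKI67, and the part of the control level was not tested. Over the 97 stage-dependent rows, poGC-CT had the lower mean of the controls in 73, and the poGC-KD mean exceeded that of phGC-CT in 82. The rows were chosen by a contrast that includes these groups, so the counts are not a separate result. Their shares over all rows were not counted. By list, in the order above, poGC-CT was the lower in 21 of 29, 22 of 37 and 30 of 31, and poGC-KD the higher in 24, 36 and 22.

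Replication genes behaved alike. MCM3, a subunit of the helicase that licenses origins, had 31.8, 34.4, 33.3 and 30.9 CPM in poGC-CT and 86.2, 81.8, 82.4 and 79.5 CPM in poGC-KD, with a change of 1.34 there and -0.011 in phGC (stage difference 1.35, adjusted p = 5.67e-06). The helicase partner MCM4 and MCM10, an initiation factor, also rose in poGC only, with stage differences of 1.11 and 1.12. ORC1, the largest subunit of the origin recognition complex, had the largest stage difference of the replication list at 1.57 (SE 0.22), from 2.36, 3.69, 3.43 and 2.98 CPM to 8.52, 7.43, 7.35 and 7.37 CPM in poGC. RRM2, the small subunit of ribonucleotide reductase that supplies deoxynucleotides, went in opposite directions. It had 80.4, 81.4, 79.2 and 76.6 CPM in poGC-CT and 179, 179.7, 176 and 172 CPM in poGC-KD, then 164, 199.6, 177 and 187 CPM in phGC-CT and 143, 131, 155 and 145 CPM in phGC-KD. The groups did not overlap in either stage, and the stage difference was 1.49 (SE 0.085, adjusted p = 3.99e-07).

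Mitotic genes included TOP2A, the topoisomerase that untangles sister chromatids, with changes of 1.35 in poGC and 0.12 in phGC (stage difference 1.23). PLK1, BUB1 and NEK2, kinases of mitotic entry, checkpoint and centrosome, had stage differences of 1.29, 1.3 and 1.23, and each rose in poGC only. CENPF, a large kinetochore protein, was another gene of opposite direction. Its CPM went from 22.1, 17.4, 24.3 and 22.5 to 46.3, 42.1, 44.9 and 49.8 in poGC and from 10.6, 9.04, 9.59 and 9.77 to 4.58, 6.34, 6.63 and 6.92 in phGC, with no overlap in either stage and a stage difference of 1.76 (SE 0.17, adjusted p = 2.59e-05). The kinetochore motor CENPE also rose in poGC (0.90) and fell in phGC (-0.43), although its phGC groups overlapped. From the RNA of whole cultures alone, more dividing cells and more of these transcripts in each cell cannot be told apart. The paper measured DNA synthesis and cell cycle phases by other assays, whose values are not used here.

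**Figure D2:**
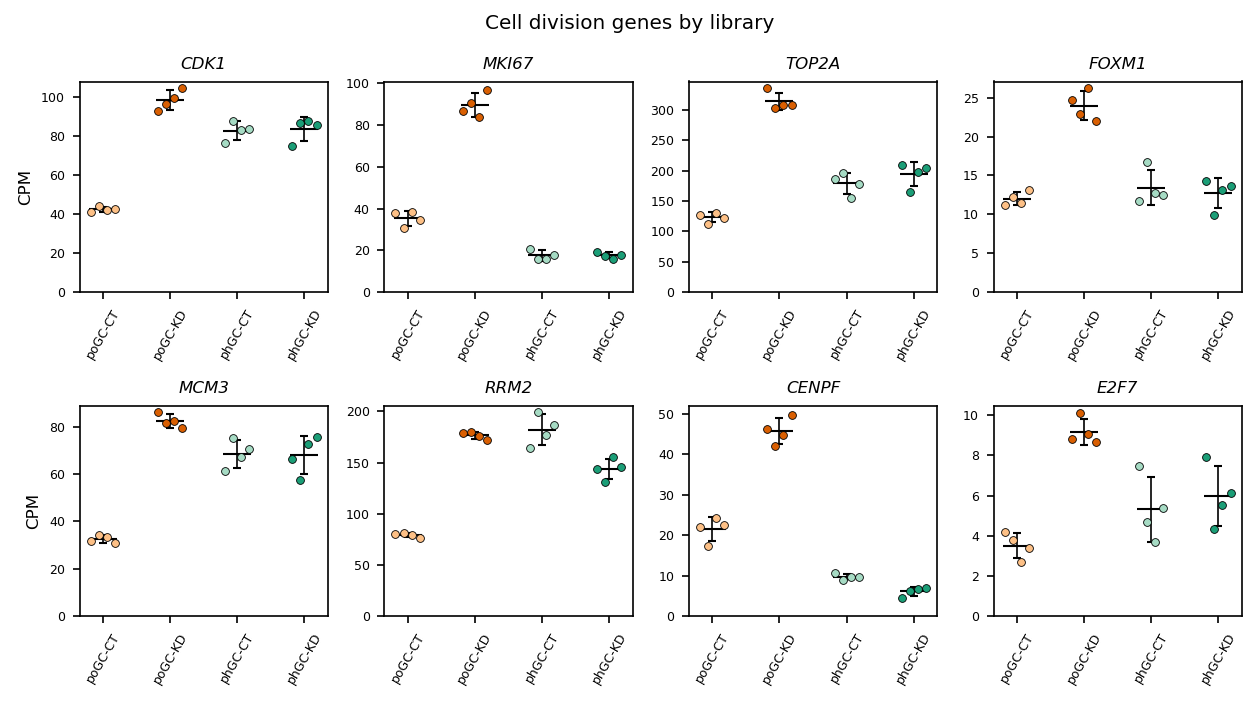
Normalized CPM of 8 cell division genes in each of the 16 libraries. Points are libraries, bars the mean ± SD of 4 and each vertical axis starts at 0. In all 8 panels the poGC-KD points lie above all poGC-CT points, whereas phGC-KD lies below phGC-CT without overlap for RRM2 and CENPF.

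Regulators of the cycle were more mixed. In the list of cyclins, their kinases, inhibitors and E2F factors, 16 of 50 rows were positive and 3 negative (38%, against 9.25% of all rows). FOXM1, a forkhead factor of mitotic gene expression, had 11.2, 12.2, 11.5 and 13.2 CPM in poGC-CT and 24.7, 22.9, 26.3 and 22 CPM in poGC-KD, against 11.8, 16.8, 12.7 and 12.4 CPM and 14.3, 9.92, 13.1 and 13.6 CPM in phGC-CT and phGC-KD. It rose in poGC only (stage difference 1.07, adjusted p = 0.00139), as did the mitotic cyclins CCNB2 (1.04) and CCNB3 (1.05) and the repressive E2F factor E2F7 (1.21). MYBL1, a transcription factor of the Myb family, rose in both stages and more in poGC, by 1.32 against 0.50. In the list for DNA damage response and homologous recombination, 14 of 45 rows were positive and 1 negative (33.3%). The exonuclease EXO1 (1.22), the recombination gene RAD54L (1.17) and the checkpoint kinase CHEK1 (1.08) rose in poGC only.

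**Figure D3:**
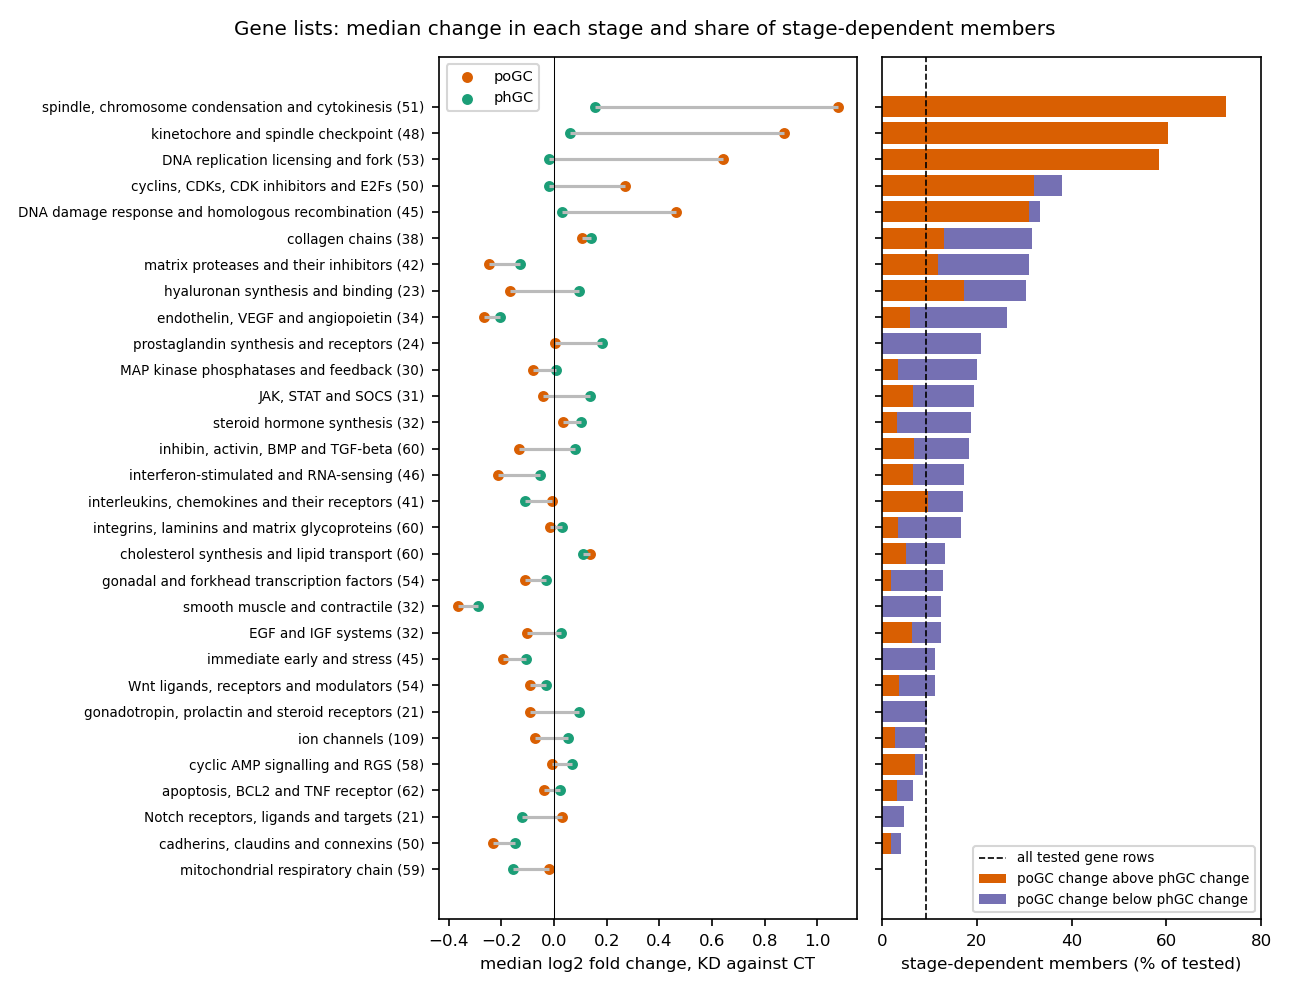
For 30 gene lists, with the number of tested rows in parentheses, the left panel gives the median log2 change in poGC and in phGC and the right panel the share of stage-dependent members by sign. The dashed line is the 9.25% of all tested rows. The 3 division and replication lists stand at 58.5% to 72.5%, all in the positive direction, and the mitochondrial list at 0%.

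Hormone genes of granulosa cells differed between the stages gene by gene. In the list of inhibin, activin, BMP and TGF-beta genes, 4 of 60 rows were positive and 7 negative, against 4.47% and 4.78% of all rows, with a median stage difference of -0.15. The 11 became 7 without phGC-CT replicate 2. INHBB, the beta B subunit shared by inhibin B and activin B, had 3.66, 2.38, 3.41 and 3.88 CPM in poGC-CT and 18.5, 14.2, 13.3 and 9.7 CPM in poGC-KD. In phGC it had 7.78, 9.37, 7.04 and 7.74 CPM in the controls and 10.6, 8.63, 11.2 and 8.41 CPM after knockdown. It rose in poGC only, by 2.06 against 0.28 in phGC (stage difference 1.78, SE 0.27, adjusted p = 0.000647). The beta A subunit gene INHBA moved the other way in poGC, from 43.9, 47, 54.6 and 33.9 CPM to 19.8, 10.9, 15.8 and 30.2 CPM. In phGC it stayed low, at 5.28, 4.2, 4.09 and 4.18 CPM and 3.54, 5.14, 5.09 and 6.51 CPM, and its stage difference was -1.42 (SE 0.37, adjusted p = 0.0242). This call was near the threshold, with adjusted p-values of 0.0505, 0.0514, 0.0512, 0.0512 and 0.0506 when poGC-KD replicate 3, poGC-CT replicate 3, phGC-KD replicate 4, phGC-CT replicate 2 or phGC-CT replicate 4 was left out. For INHA, the alpha subunit gene, the stage difference of 0.27 did not pass the test (95% interval -0.14 to 0.68, adjusted p = 0.457).

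AMH, the anti-Müllerian hormone made by granulosa cells of small follicles, had 48.9, 49.8, 50.9 and 46.6 CPM in poGC-CT and 30.3, 26.5, 25.3 and 22.1 CPM in poGC-KD. In phGC its level was far higher, at 1260, 1750, 1623 and 1757 CPM in the controls and 2006, 1411, 2300 and 1601 CPM after knockdown. It fell in poGC without overlap (-0.91) while the phGC groups overlapped (0.20), and the stage difference was -1.11 (SE 0.20, adjusted p = 0.00263). BMP4, a ligand of the BMP family, changed in opposite directions, by 0.38 in poGC and -0.42 in phGC. The TGF-beta co-receptor gene ENG rose in phGC only, from 11.9, 15.6, 16.4 and 14.3 CPM to 22.2, 28.1, 27.8 and 30.7 CPM (stage difference -0.91, adjusted p = 0.00821). LTBP2, a matrix protein of the latent TGF-beta binding family, fell in both stages and more in phGC (-1.14 against -0.24).

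Of the steroid synthesis genes, 1 of 32 rows was positive and 5 negative (18.8%, against 9.25% of all rows). STAR, which carries cholesterol into mitochondria, was the member with opposite changes. It had 74.2, 80.2, 82 and 76.4 CPM in poGC-CT and 56.9, 53.4, 59.9 and 55.3 CPM in poGC-KD, and 40.1, 42.3, 43.7 and 44.3 CPM in phGC-CT and 41.5, 77.2, 57.8 and 57.5 CPM in phGC-KD. All poGC-KD libraries lay below the controls, while in phGC 3 of 4 knockdown libraries lay above all controls and phGC-KD replicate 1 lay among them. The changes were -0.47 and 0.46, and the stage difference -0.93 (SE 0.18, adjusted p = 0.00401). NR5A1, which encodes the steroidogenic factor SF-1, rose in phGC only, from 129.9, 142, 149 and 145 CPM to 190.3, 210.2, 199 and 216 CPM without overlap (stage difference -0.46, adjusted p = 0.00644). CYP11A1, whose product makes pregnenolone from cholesterol, had changes of 0.087 and 0.14, and its stage difference of -0.05 had a 95% interval of -0.30 to 0.20.

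CYP17A1, a hydroxylase and lyase of androgen synthesis that in hens is mainly a theca product, had 127, 184, 143 and 134 CPM in poGC-CT and 104, 95.5, 92.9 and 79.9 CPM in poGC-KD, against 78.5, 156, 102 and 117 CPM and 165, 125, 192 and 117 CPM in phGC-CT and phGC-KD. It fell in poGC (-0.66), and its change in phGC did not pass the test (0.40), with a stage difference of -1.07 (adjusted p = 0.0242). The call was lost without poGC-CT replicate 2 (adjusted p = 0.0514) and without phGC-KD replicate 3 (adjusted p = 0.0517). Of 13 tested markers of theca cells and fibroblasts, 3 were stage-dependent (23.1%, against 9.25% of all rows), all negative. These were CYP17A1, COL3A1 and TWIST1, the last with adjusted p-values of 0.0559, 0.0512, 0.0560 and 0.0519 without poGC-CT replicate 1, phGC-KD replicate 4, phGC-CT replicate 2 and phGC-CT replicate 4. The summed level of that list was 1206 to 1274 CPM in poGC-KD, 1626 to 1731 in poGC-CT, 5302 to 6463 after knockdown in phGC and 5686 to 6477 in its controls, with COL3A1, COL1A1 (15.1 to 251 FPKM), COL1A2 (43.9 to 87.0) and THY1 (44.5 to 81.5) expressed throughout and LUM, OGN and PRRX1 below 1 FPKM. That sum counts CYP17A1 and COL3A1 themselves, so it is not a separate measure of cell content. COL3A1 alone had a mean of 959 CPM in the poGC controls and 517 CPM after knockdown. In poGC, 5 of the 13 markers fell and 3 rose, against 11.1% and 11.4% of all rows. Those that fell were CYP17A1, COL3A1, TWIST1, DCN and TCF21. Those that rose were COL1A1 (0.64), THY1 (0.48) and POSTN (1.15). The part of theca cells and fibroblasts in the CYP17A1 result was not tested. Among gonadotropin, prolactin and steroid receptors 2 of 21 rows were stage-dependent (9.52%, about the 9.25% of all rows), and both negative. GHR, the growth hormone receptor, rose in phGC only (0.61, stage difference -0.93). Its poGC-KD libraries also lay below all poGC-CT libraries, although that change did not pass the test (-0.32, adjusted p = 0.0938). VIPR2, a receptor of vasoactive intestinal peptide, had a stage difference of -0.93 with overlap between KD and CT in both stages.

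**Figure D4:**
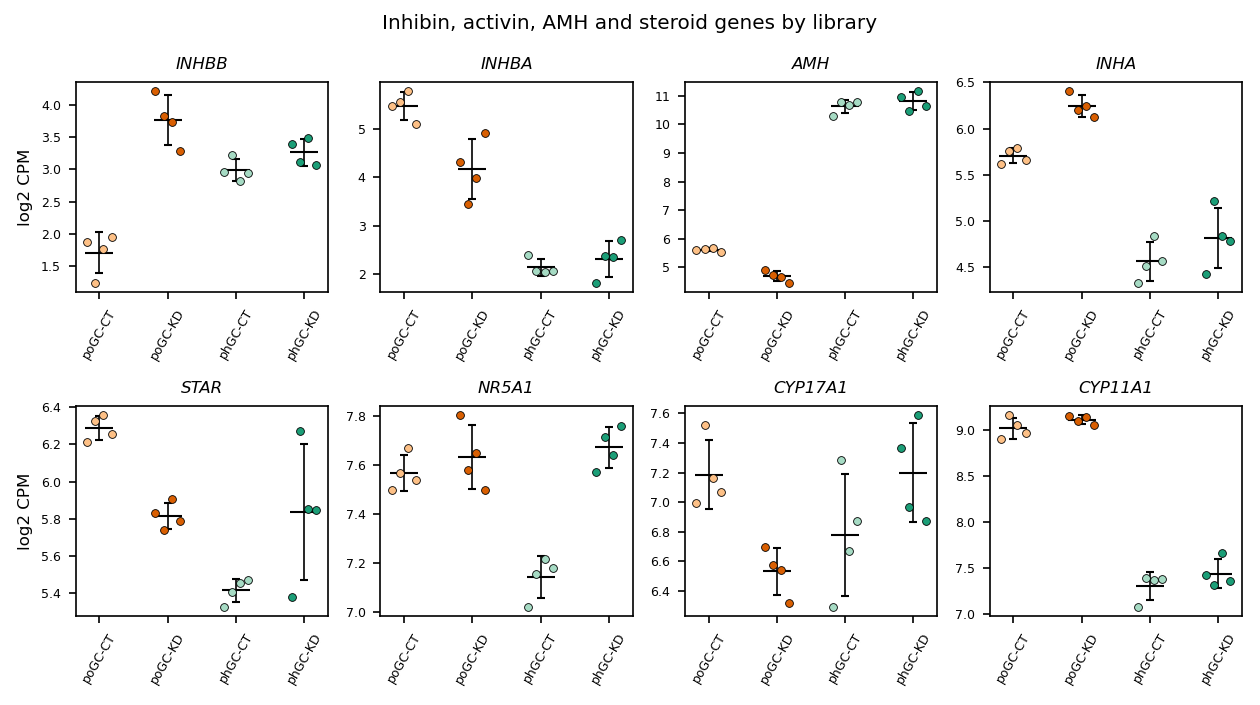
Log2 CPM of 8 genes of inhibins, activins, AMH and steroid synthesis in each library. Points are libraries and bars the mean ± SD of 4 log2 values. INHBB rises and INHBA and AMH fall between the poGC groups, NR5A1 rises between the phGC groups, STAR falls in poGC and rises in phGC, and INHA and CYP11A1 show no stage difference past the test.

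Outside these lists, the poGC-only genes with the largest stage differences were of many kinds. IHH, the Indian hedgehog ligand that granulosa cells send to theca cells in mammals, had 9.03, 10.1, 12.4 and 9.7 CPM in poGC-CT and 75.5, 59.8, 57.1 and 51.4 CPM in poGC-KD. In phGC it had 7.24, 9.95, 7.9 and 7.25 CPM and 11.8, 11.9, 12.2 and 8.23 CPM. Only the poGC-KD libraries stood out, and the change was 2.56 in poGC against 0.45 in phGC (stage difference 2.12, SE 0.22, adjusted p = 3.83e-05). ASB6, of a family of substrate adaptors of ubiquitin ligases, had a stage difference of 2.17 (SE 0.41) and AFAP1L1, an actin filament-associated protein, of 2.03 (SE 0.15). AFAP1L1 rose from 3.55, 3.6, 2.36 and 3.0 CPM to 14.6, 14, 13.1 and 13.4 CPM in poGC, and its level in phGC was higher at 45.9, 49.1, 50.2 and 47.2 CPM and 55, 45.6, 50.7 and 57.3 CPM in controls and knockdown. SLC37A2, a sugar-phosphate transporter, had a stage difference of 1.99 (SE 0.44, adjusted p = 0.0104).

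Among the genes that fell in poGC only, RDH10 was the clearest. It encodes a retinol dehydrogenase that catalyses the first step from retinol to retinoic acid, and it had 160.3, 158, 129 and 146 CPM in poGC-CT and 46.1, 54.7, 50.6 and 53.8 CPM in poGC-KD. In phGC it had 43.5, 45.5, 41.7 and 46.8 CPM and 44.3, 47.3, 47.4 and 47.8 CPM, so that poGC-KD came down to about the phGC range while phGC did not move. The stage difference was -1.61 (SE 0.10, adjusted p = 1.02e-06). SLC6A2, the noradrenaline transporter, fell by a log2 change of -1.89 in poGC against -0.44 in phGC (stage difference -1.45), and CDO1, the cysteine dioxygenase, had -0.98 against 0.46 (-1.44). The integrin subunit gene ITGA4 had a stage difference of -1.88 (SE 0.42). ANGPTL6, an angiopoietin-like protein, had one of -1.59 (SE 0.42), but with poGC-KD replicate 2, poGC-CT replicate 4, phGC-KD replicate 1, phGC-KD replicate 3, phGC-CT replicate 3 or phGC-CT replicate 4 left out its adjusted p was 0.0584, 0.0600, 0.0570, 0.0505, 0.0526 or 0.0517.

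IGFBP5, a binding protein that sequesters insulin-like growth factors, rose in phGC only. Among the 5 genes of this class named by size of stage difference, its level in phGC was the highest. It had 197, 144, 155 and 182 CPM in phGC-CT and 339, 357, 738 and 378 CPM in phGC-KD, where replicate 3 lay well above the rest. In poGC it had 133, 69.3, 55.6 and 68.5 CPM and 72.4, 71.6, 81.5 and 78.8 CPM, with overlap. Its stage difference was -1.52 (SE 0.38, adjusted p = 0.0196). ESM1, a proteoglycan known from endothelium, rose from 0.288, 0.213, 0.384 and 0.43 CPM to 1.19, 1.13, 1.68 and 1.46 CPM in phGC and was higher in poGC at 4.7, 4.98, 4.83 and 4.83 CPM and 6.99, 5.93, 5.54 and 6.06 CPM (stage difference -1.70, adjusted p = 0.000802). Its poGC groups did not overlap either, although the change there did not pass the test (0.34, adjusted p = 0.186). SV2C, a synaptic vesicle glycoprotein, had a stage difference of -1.77, with at most 1.76 CPM in phGC. ANK1, the ankyrin of the erythrocyte membrane skeleton, rose from 3.01, 2.59, 2.01 and 2.18 CPM to 10.5, 6.7, 8.22 and 11.5 CPM in phGC (stage difference -1.52). LRRC32, a surface receptor of latent TGF-beta, was at most 0.413 CPM in phGC, and its stage difference of -1.54 lost the call without phGC-KD replicate 1 (adjusted p = 0.133).

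Fewer genes fell in phGC only. WFIKKN1, a secreted protein that binds myostatin in mammals, had 8.14, 9.98, 10.2 and 9.92 CPM in phGC-CT and 3.24, 4.01, 3.36 and 3.57 CPM in phGC-KD. In poGC it was low, at 1.29, 1.33, 2.26 and 1.19 CPM and 1.92, 1.56, 1.51 and 1.9 CPM with overlap, and the stage difference was 1.61 (SE 0.26, adjusted p = 0.00124). CEP290, a centrosome and cilium protein, fell from 4.71, 2.65, 4.13 and 3.87 CPM to 1.06, 1.99, 2.3 and 1.72 CPM in phGC (stage difference 1.44). The metalloproteinase gene ADAMTS8 had a stage difference of 1.16 and AHNAK2, a large scaffold protein, of 1.15. FJX1 had a stage difference of 1.31 (SE 0.38, adjusted p = 0.0405), but the call was lost in turn without replicate 1, 2 or 3 of poGC-KD, replicate 1, 2 or 4 of poGC-CT, replicate 1, 3 or 4 of phGC-KD or replicate 4 of phGC-CT, with adjusted p-values of 0.0567 to 0.0928.

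Changes of opposite sign were seen in genes outside cell division too. NDNF, a secreted neurotrophic and vascular factor, had 2.2, 2.27, 2.15 and 1.47 CPM in poGC-CT and 7.07, 7.48, 7.94 and 7.43 CPM in poGC-KD. In phGC it had 12.3, 11.4, 12.3 and 10.5 CPM in the controls and 7.5, 7.83, 6.14 and 7.46 CPM after knockdown. The control groups stood far apart and the KD groups overlapped, with changes of 1.89 and -0.68 and a stage difference of 2.57 (SE 0.18, adjusted p = 1.14e-06). PTX3, a pentraxin that in mice cross-links the hyaluronan matrix of the cumulus, also rose in poGC and fell in phGC, with 2.62, 2.05, 2.03 and 1.99 CPM in poGC-CT, 4.4, 5.46, 4.79 and 5.15 in poGC-KD, 11.6, 10.8, 14.1 and 11.1 in phGC-CT and 7.97, 6.27, 7.71 and 9.51 in phGC-KD. Its stage difference was 1.78 (SE 0.20). NUAK2, a kinase of the AMPK family, rose by 0.63 in poGC and fell by a log2 change of -0.92 in phGC.

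The reverse pattern, down in poGC and up in phGC, was led by LRRN3 and FGL2. FGL2, a fibrinogen-like secreted protein, had 839, 744, 847 and 806 CPM in poGC-CT and 367, 433, 406 and 436 CPM in poGC-KD. In phGC it had 18.6, 15.3, 12.3 and 14.5 CPM and 28.5, 29.4, 25.8 and 23.1 CPM. No groups overlapped, the changes were -0.98 and 0.81, and the stage difference was -1.79 (SE 0.15, adjusted p = 5.14e-06), although the level in poGC-KD was still far above that of phGC. LRRN3, a leucine-rich repeat membrane protein, had 18.3, 17.1, 16.2 and 17.2 CPM and 9.05, 9.4, 10.8 and 10.7 CPM in poGC but only 0.192, 0.122, 0.288 and 0.123 CPM and 0.565, 0.398, 0.597 and 0.475 CPM in phGC, and its stage difference was -2.28 (SE 0.27). CHSY3, a chondroitin sulfate synthase, went from 5.07, 5.13, 5.02 and 5.27 CPM to 3.45, 4.01, 2.75 and 2.72 CPM in poGC and from 7.4, 8.7, 5.92 and 6.54 CPM to 15, 13.6, 14.6 and 12.4 CPM in phGC (stage difference -1.63). GRM7, a metabotropic glutamate receptor, had a stage difference of -1.12 and the row named RP11-290H9.2 of -1.3. In 58 of the 94 opposite rows, knockdown and control libraries were fully apart in both stages. These rows were chosen by both changes, so this count is not a separate result. Over all rows, 31.2% were without overlap in poGC and 17.4% in phGC, and the share without overlap in both at once was not counted.

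**Figure D5:**
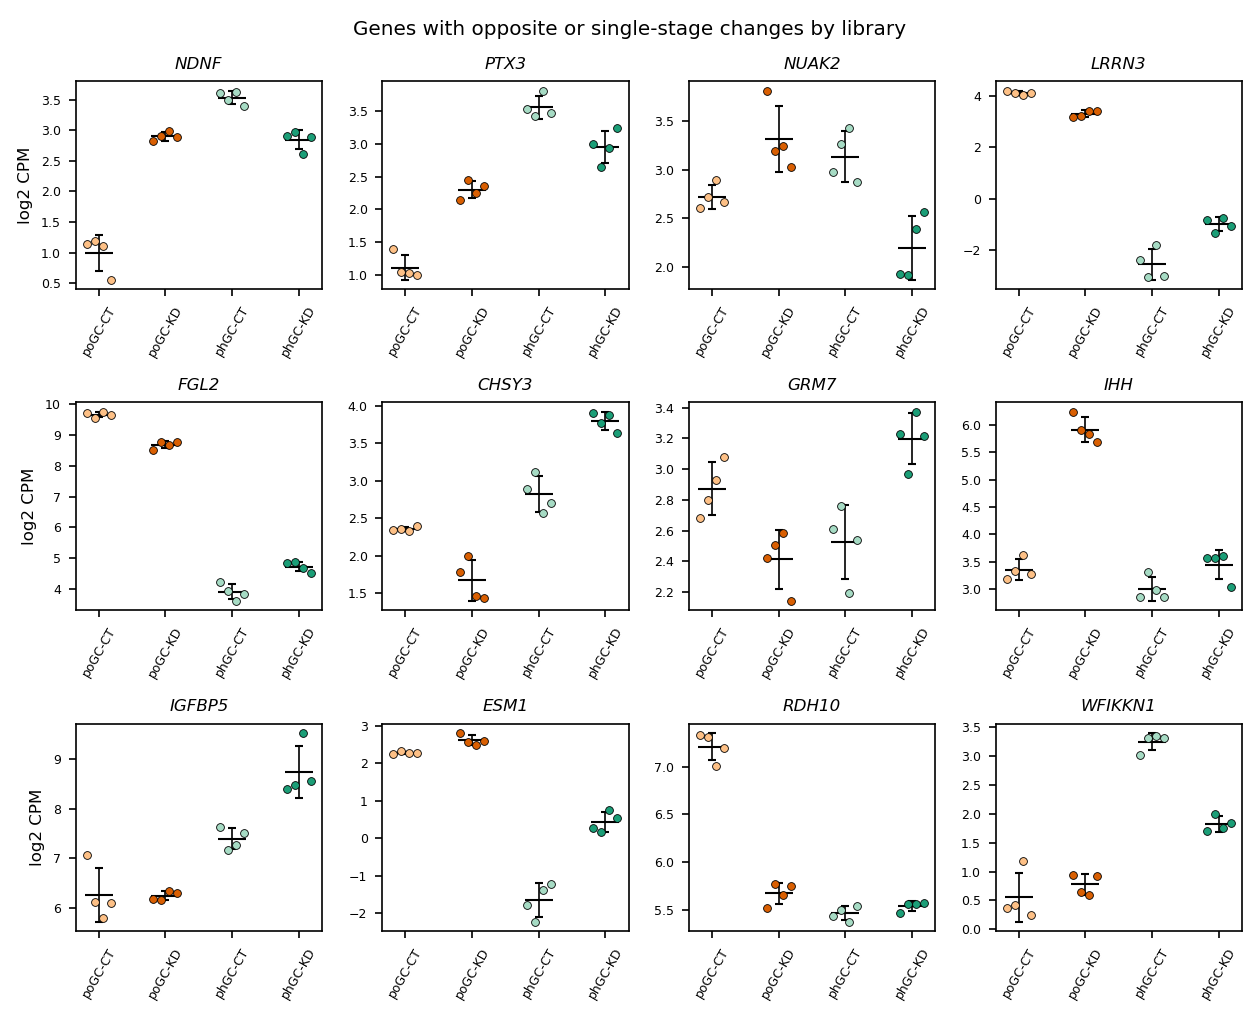
Log2 CPM of 12 genes with opposite or single-stage changes in each library, with points for libraries and bars for the mean ± SD of 4 log2 values. NDNF, PTX3 and NUAK2 rise in poGC and fall in phGC, LRRN3, FGL2, CHSY3 and GRM7 do the reverse, IHH and RDH10 move in poGC, and IGFBP5, ESM1 and WFIKKN1 move in phGC.

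In the matrix lists, members differed in both directions. Of 38 collagen rows 5 were positive and 7 negative (31.6%, against 9.25% of all rows). COL3A1, a fibrillar collagen, fell in poGC only (-0.89, stage difference -0.79, adjusted p = 0.00118). COL4A1 and COL4A2, which form the common basement membrane collagen, rose together in poGC from low levels, with COL4A1 at 0.31, 0.175, 0.46 and 0.282 CPM in poGC-CT and 1.32, 1.35, 1.51 and 1.03 CPM in poGC-KD (stage differences 1.83 and 1.76). COL4A3, a chain of another basement membrane network, lay far higher, from 753, 599.6, 423 and 549 CPM to 954, 746, 794 and 775 CPM in phGC. It rose there only (stage difference -0.85), with overlap, since phGC-KD replicate 2 lay below phGC-CT replicate 1. Integrins, laminins and matrix glycoproteins had 2 positive and 8 negative rows of 60 (16.7%). In the protease list, 5 of 42 rows were positive and 8 negative (31%). MMP16, a membrane-bound metalloproteinase, went from 10.8, 10.1, 9.7 and 11.2 CPM to 29, 27, 23.1 and 32.9 CPM in poGC while phGC had 10.2, 8.07, 8.06 and 8.54 CPM and 9.06, 8.23, 7.68 and 8.5 CPM (stage difference 1.48, adjusted p = 3.83e-05). TIMP4, a metalloproteinase inhibitor, fell in phGC only (-0.94, stage difference 1.06), and ADAMTS19, another metalloproteinase, fell in poGC only (-1.74, stage difference -1.93).

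Some genes changed the same way in both stages but by different amounts. PLAU, the urokinase gene, fell by a log2 change of -1.79 in poGC and -0.79 in phGC, and the contractile genes ACTN1 (-1.05 and -0.51), CALD1 (-1.5 and -0.53) and PDLIM3 (-1.55 and -0.66) fell more in poGC as well. In the contractile list 4 of 32 rows were stage-dependent, all negative (12.5%, against 9.25% of all rows), and 7 were without phGC-CT replicate 1. Of the 4, 1 did not change the same way but fell in poGC and rose in phGC. PTGS2, the inducible prostaglandin synthase, also fell more in poGC (-1.10 and -0.36), the prostaglandin F receptor gene PTGFR fell in poGC only (-0.81, stage difference -0.99), and HPGD, which degrades prostaglandins, rose in phGC only (0.82, stage difference -0.81). All 5 stage-dependent rows of the 24 prostaglandin rows were negative (20.8%). KRT19, a keratin, had 7.63, 8.64, 9.66 and 9.03 CPM in poGC-CT and 40.9, 39.9, 43.5 and 41 CPM in poGC-KD, then 198, 228, 241 and 223 CPM in phGC-CT and 301, 361, 325 and 359 CPM in phGC-KD. It rose in both stages without overlap and more steeply from its lower level in poGC (stage difference 1.64, adjusted p = 1.14e-06). The summed level of 11 epithelial markers was 137 to 149 CPM in poGC-KD, 91.5 to 115 in poGC-CT, 821 to 961 after knockdown in phGC and 773 to 943 in its controls, with KRT7 (13.4 to 116 FPKM), KRT8 (3.33 to 58.9), CDH1 (0.624 to 102) and EPCAM (0.953 to 8.41) expressed and MUC16 at no more than 0.0266 FPKM, and its part in the KRT19 result was not tested. That epithelial sum counts KRT19 itself, so it is not a separate measure of cell content. KRT19 alone had a mean of 8.74 CPM in the poGC controls and 41.3 CPM after knockdown. Within poGC, 3 of the 11 markers rose and 1, CDH1, fell (-1.71, adjusted p = 0.0256), against 11.4% and 11.1% of all rows. TYRP1, known from melanin synthesis, rose by 4.54 in poGC and 2.27 in phGC (stage difference 2.27). Both changes started from low levels, with means of 0.26 CPM in poGC-CT and 6.24 CPM in poGC-KD. In phGC the means were 0.31 CPM in the controls and 1.48 CPM after knockdown. PMEL (up to 5.78 FPKM) and MITF (up to 7.98) passed 1 FPKM in every library, whereas TYR, MLANA and SOX10 did not pass 0.105 FPKM.

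Signalling genes contributed smaller numbers. STC2, a secreted glycoprotein hormone, rose in poGC only (1.34, stage difference 1.77). IGFBP2, another binding protein of insulin-like growth factors, fell in phGC only, from 311, 326, 393 and 312 CPM to 211, 220.1, 198 and 201 CPM (stage difference 0.78). The EGF and IGF list had 2 positive and 2 negative rows of 32 (12.5%, against 9.25% of all rows). IL6ST, the shared receptor chain of the interleukin-6 family, rose in phGC only (0.57), LIF, a ligand of that family, fell in poGC only (-1.06), and SOCS3, the feedback inhibitor, fell in poGC only (-0.50). Their stage differences were -0.61, -1.3 and -0.74. The counts were 2 positive and 4 negative of 31 in the JAK and STAT list (19.4%), and 4 and 3 of 41 among interleukins and chemokines (17.1%). KITLG, the Kit ligand, rose in poGC only (0.81, stage difference 0.93). JUN, an AP-1 subunit, and KLF2, a Krüppel-like factor, fell in poGC only (stage differences -0.49 and -0.99), and all 5 stage-dependent rows of the 45 immediate early and stress rows were negative (11.1%, against 9.25% of all rows). USP18, which removes ISG15 from proteins, fell in poGC (-0.30) and rose in phGC (0.37) without overlap in either, while TRIM25, a ligase in RNA sensing, fell in phGC only (-0.64). The interferon list had 3 positive and 5 negative rows of 46 (17.4%).

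Vascular and Wnt genes also differed in both directions. Of 34 rows for endothelins, VEGF and angiopoietins 2 were positive and 7 negative (26.5%, against 9.25% of all rows). EDNRB, an endothelin receptor, fell more in poGC (-1.36 and -0.29, stage difference -1.07), EDN1, its ligand, did so too (-0.61), and FIGF, which encodes VEGF-D, fell in poGC only (-1.32). Among 11 endothelial markers, PLVAP and CDH5 were stage-dependent (18.2%, against 9.25% of all rows), both negative. CDH5 had an adjusted p of 0.0524 without poGC-CT replicate 1 and 0.0512 without phGC-KD replicate 3. EMCN fell in both stages without overlap (-1.36 and -0.56), but its stage difference of -0.80 missed the test (adjusted p = 0.0571). In poGC, 3 of the 11 endothelial markers fell and 0 rose, against 11.1% and 11.4% of all rows. The summed level of that list was 132 to 171 CPM in poGC-KD, 143 to 272 in poGC-CT, 139 to 159.6 after knockdown in phGC and 137 to 138 in its controls, with CLDN5 (9.77 to 55.8 FPKM), PLVAP (2.35 to 41.0) and PECAM1 (1.34 to 7.60) expressed in every library and VWF at no more than 0.0759 FPKM, and its part in these results was not tested. That endothelial sum counts PLVAP and CDH5 themselves, so it is not separate from their results. It also counts CLDN5, which had 21 CPM in poGC-CT replicate 1 and 106, 119 and 108 CPM in the other poGC controls. PLVAP alone had a mean of 72.7 CPM in the poGC controls and 26.8 CPM after knockdown. WNT6 rose in poGC only (0.85) and SFRP4, a secreted Wnt antagonist, fell in phGC only (stage difference 0.83). The Wnt list had 2 positive and 4 negative rows of 54 (11.1%), a share near that of all rows. NRARP, a feedback inhibitor of Notch, was the stage-dependent row of 21 in the Notch list (stage difference -0.60). Of the gonadal and forkhead factors 1 of 54 rows was positive and 6 negative (13%). WT1, a zinc finger factor of the early gonad, fell in poGC only, from 42.8, 26.3, 29.3 and 32.5 CPM to 23.9, 21.6, 23.8 and 20.5 CPM. Its change there was -0.54 and its stage difference -0.84.

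In the remaining lists the counts of positive and negative rows were 4 and 1 of 58 for cyclic AMP signalling and RGS genes, 1 and 5 of 30 for MAP kinase phosphatases and feedback genes, 2 and 2 of 62 for apoptosis, 4 and 3 of 23 for hyaluronan, 1 and 1 of 50 for cadherins, claudins and connexins, 3 and 5 of 60 for cholesterol, and 3 and 7 of 109 for ion channels, against 4.47% and 4.78% of all rows. Hyaluronan (30.4%), MAP kinase feedback (20%) and cholesterol (13.3%) lay above the 9.25% of all rows. Cyclic AMP (8.62%), apoptosis (6.45%), cadherins (4%) and ion channels (9.17%) lay at or below it, as did the Notch list (4.76%). Without phGC-CT replicate 1, the stage-dependent rows went from 4 to 9 for apoptosis and from 5 to 10 for cyclic AMP, and apoptosis fell to 2 without poGC-CT replicate 2, poGC-CT replicate 4 or phGC-CT replicate 2. Of 59 mitochondrial respiratory chain rows, 0 passed in edgeR, DESeq2 or limma, and 2 had an unadjusted p under 0.05 in edgeR. Their stage differences lay above 0 in 50 of the 59, with a median of 0.095 against -0.014 over all rows. Within phGC, 7 of these rows fell and 0 rose, against 7.74% and 9.69% of all rows. In poGC 2 fell and 0 rose, against 11.1% and 11.4%. RGS3, a regulator of G-protein signalling, rose in both stages and more in poGC (1.41 and 0.74), whereas CREB3L1, a membrane-bound transcription factor, rose in poGC (0.51) and fell in phGC (-0.42). Among the other marker lists, 6 of 15 granulosa rows were stage-dependent (40%, against 9.25% of all rows), with a median stage difference of -0.30 over the list. INHBB was positive, and INHBA, AMH, STAR, WT1 and NR5A1 were negative. Also stage-dependent were 2 of 11 epithelial rows (KRT19 and KRT8, 18.2%), LCP1 of 7 leukocyte rows (14.3%), HEMGN of 3 erythrocyte rows (33.3%), and TYRP1 of 7 pigment rows (14.3%). The KRT8 call (adjusted p = 0.0391) was lost in turn without replicate 1 or 3 of poGC-KD, replicate 1 or 4 of poGC-CT, replicate 1, 2 or 3 of phGC-KD or replicate 2, 3 or 4 of phGC-CT, with adjusted p-values of 0.0639 to 0.0844. Of 8 germ cell rows 0 passed in edgeR, where 2 had an unadjusted p under 0.05, and 1 passed in DESeq2 and 1 in limma.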

How the data were processed

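PolyA RNA of 16 libraries was sequenced in pairs on an Illumina platform. The authors deposited, for each sample, a table with the unnormalized read count of every gene row and with an FPKM value, which sets reads against transcript length and depth. The reads had been filtered for adapters, poor quality and runs of N. The paper names TopHat2 as the aligner, whereas the submitters' processing notes name HISAT2 (version 2.1.0), StringTie (1.3.4d) and DESeq2 (1.26.0). The counting program, annotation and strand setting are not given in the sources used here, so that reads of overlapping or near-identical genes may have been split. The files hold 18151 rows under 18053 symbols, and 187 rows that share a symbol were tested apart. No replicate pair of a group agreed within sampling noise.

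Groups came from the sample titles. All 16 libraries entered 1 fit in edgeR (version 4.0.16, R 4.3.3), with TMM scaling, filterByExpr by group, a mean per group and no block. The quasi-likelihood F test was applied to the stage difference and to the change within each stage, with Benjamini-Hochberg adjustment over the 14775 rows kept. Every adjusted p-value in the text is of this kind unless another tool is named. Standard errors are the estimate over the square root of F. CPM values are TMM-normalized and are not divided by gene length, and FPKM served for marker levels only. The steps were tested on simulated data.

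The 38 gene lists, 8 of them cell markers, and the comparisons were chosen with earlier results of these data known. Named genes are FOXL2, the 5 largest stage differences in each of 6 classes (single-stage or opposite, by direction) among rows without overlap in the stages called, at least 5 CPM in a group and a unique symbol not beginning with LOC, and up to 6 stage-dependent members of each list. INHA and CYP11A1, whose values are given beside INHBB and STAR, were added after their values were seen. Cell markers named for their level or for a change within a stage also lie outside this rule. EMCN, CDH1, COL1A1, THY1, POSTN, DCN and TCF21 are among them, and they too were named with their values seen. Alternatives were other scalings (upper quartile, DESeq2 size factors), DESeq2 (version 1.42.0), limma (3.58.1) on log2 CPM (prior count 1), other filters (every row, or a minimum of 10 counts throughout), a block on the replicate numbers, thinned poGC counts, separate fits per stage, a within-stage threshold of 0.1 and leaving out each library. Replicate numbers occur in every group, but same-numbered libraries did not deviate together (correlations -0.078 to 0.104), so that no pairing was assumed.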

Additional observations from a re-analysis of the deposited data

Results flagged for a closer look

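The stage difference itself was tested for every row, and 1367 rows passed. Among the named genes, the response differed between the stages on the log2 scale as follows. Up in poGC only were ASB6 (2.17), IHH (2.12), AFAP1L1 (2.03), SLC37A2 (1.99) and INHBB (1.78). Down in poGC only were ITGA4 (-1.88), RDH10 (-1.61), ANGPTL6 (-1.59), SLC6A2 (-1.45) and CDO1 (-1.44). Up in phGC only were SV2C (-1.77), ESM1 (-1.70), LRRC32 (-1.54), ANK1 (-1.52) and IGFBP5 (-1.52). Down in phGC only were WFIKKN1 (1.61), CEP290 (1.44), FJX1 (1.31), ADAMTS8 (1.16) and AHNAK2 (1.15). Up in poGC and down in phGC were NDNF (2.57), PTX3 (1.78), CENPF (1.76), NUAK2 (1.55) and RRM2 (1.49). Down in poGC and up in phGC were LRRN3 (-2.28), FGL2 (-1.79), CHSY3 (-1.63), RP11-290H9.2 (-1.30) and GRM7 (-1.12).

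In some groups of these named genes 1 library lay apart from the other 3. Of 124 groups of 4 libraries examined this way, 9 had such a library, and chance alone gives about 5% of groups. ASB6 was high in phGC-CT replicate 3 (38.3 CPM), IHH was low in phGC-KD replicate 4 (8.23 CPM) and ITGA4 was low in poGC-KD replicate 1 (0.847 CPM). RDH10 was low in phGC-KD replicate 1 (44.3 CPM), IGFBP5 was high in phGC-KD replicate 3 (738 CPM) and WFIKKN1 was high in poGC-CT replicate 3 (2.26 CPM). WFIKKN1 was low in phGC-CT replicate 1 (8.14 CPM), NDNF was low in poGC-CT replicate 4 (1.47 CPM) and PTX3 was high in poGC-CT replicate 1 (2.62 CPM).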

How the results depend on the processing

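Over the alternatives the stage-dependent rows numbered 1054 to 1908, the highest with DESeq2 as the test, and those shared with the reported set had the same direction in each. Leaving out a library gave 1061 to 1857 stage-dependent rows (1857 without phGC-CT replicate 1), 582 to 806 poGC-only rows, 241 to 629 phGC-only rows (629 without phGC-CT replicate 1) and 58 to 162 opposite rows (162 without phGC-CT replicate 1, 62 without poGC-CT replicate 4 and 58 without phGC-CT replicate 4). The share of positive rows was 48.4% as reported, 52.5% (704 positive, 637 negative) with upper-quartile scaling and 50.2% with a minimum of 10 counts throughout. Leaving out a library gave 41.4% (without phGC-CT replicate 1) to 51.9% (without phGC-CT replicate 3). Which sign was more frequent thus depends on the scaling, the filter and the libraries used. The opposite rows numbered 94 as reported, 143 with the DESeq2 test, 53 with a separate fit per stage and 169 at a within-stage adjusted p under 0.1. The phGC-only rows numbered 336 as reported, 515 with the DESeq2 test and 201 with a separate fit per stage. The cause of these shifts was not tested. The FOXL2 stage difference was -0.37 to -0.16 over all alternatives and when a library was left out, with adjusted p-values from 0.175 to 0.613. With replicate numbers fitted as a block, the stage-dependent rows were 1291, the opposite rows 92, the poGC-only rows 675 and the phGC-only rows 330, and with a block within each stage 1054, 80, 562 and 271. The pairing was not borne out by the libraries, and under the block within each stage ITGA4 (adjusted p = 0.0763), IGFBP5 (0.0672), AHNAK2 (0.0541), INHBA (0.0815) and CYP17A1 (0.0773) lost the call. LRRC32 lost it with limma (0.0661). Of 181 named stage differences other than FOXL2, list members included, 131 kept an adjusted p under 0.05 in every alternative fitted, 50 lost it in at least 1 and 0 reversed. Counts of stage-dependent members stayed within 1.5 times in every alternative for 20 of 38 lists, and the other 18 changed more. With 1 library left out, counts went from 8 to as low as 4 for the interferon list (4 without poGC-KD replicate 1, and 5 without any 1 of poGC-KD 3, poGC-CT 1 and 4, phGC-KD 1, 2 and 3 and phGC-CT 2 and 3), from 7 to 4 for gonadal and forkhead factors (poGC-KD 2, poGC-CT 1, 3 and 4, phGC-CT 4), from 5 to 3 for immediate early genes (poGC-KD 2, poGC-CT 1, 3 and 4, phGC-KD 1 and 4, phGC-CT 2, 3 and 4), from 1 to 2 or 3 for Notch (phGC-KD 2 and 4, and 3 without phGC-CT 1), from 2 to 1 for cadherins (phGC-KD 3), and from 1 to 2 for erythrocyte (poGC-CT 1, phGC-CT 1) and pigment markers (phGC-KD 2, phGC-CT 1). Genes under about 1 CPM in a stage rest on few reads, and a median standard error of 0.18 limits what single genes can show.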
